A study of Mus musculus with 19 samples.

Results

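Type 1 conventional dendritic cells (DC1) are dendritic cells that excel at showing captured antigen to CD8 T cells. In a lymph node they come as 2 populations, resident DC1, which reach the node from the blood, and migratory DC1, which arrive through the lymph from the skin and other tissue. The comparison described here is between WT migratory and WT resident DC1 of skin-draining lymph nodes (SDLN), across all genes on an Affymetrix array. It rests on 5 of the 19 arrays of the series, chosen by their titles, with 2 arrays of migratory and 3 arrays of resident DC1. All 5 came from C57Bl/6j mice with WT Batf3, and all cells carried Irf8VENUS, a fluorescent reporter of Irf8, and were sorted as positive for it. The 6 other lymph node arrays, 3 of migratory and 3 of resident Irf8VENUS+ DC1, came from mice lacking Batf3 (Batf3-/-), on the same background, and were used to estimate the spread and to set the same difference beside the WT one. Neither age nor sex of the mice is given for the lymph node arrays. Inguinal, cervical and brachial nodes were digested with collagenase, and DC1 were sorted as negative for B220, EpCam and CD172 (the product of Sirpa) and positive for CD11c (Itgax), MHC class II and CD24. Migratory DC1 were those with high MHC class II and intermediate CD11c, and resident DC1 those with intermediate MHC class II and high CD11c. These levels of protein chose the cells, so the transcripts of Itgax, of MHC class II genes, of Cd24a and of Sirpa describe the sorted cells and are not a finding. The labels do not state whether each array used other mice than its fellows, so the p-values speak of array-to-array spread, which may be partly technical.

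A dendritic cell that leaves a tissue passes through maturation, also when no infection is present. It gains CCR7, the receptor that guides it along the lymph-borne chemokines CCL19 and CCL21, and displays costimulatory molecules. It also takes up less antigen and stops making new MHC class II, whose molecules stay longer at its surface. The transcription factors IRF8 and BATF3 set up and hold the DC1 identity, whose textbook markers are the chemokine receptor XCR1, the dead-cell receptor CLEC9A and the double-stranded RNA receptor TLR3.

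The deposited values are log2 intensities after RMA, a processing that corrects background and sets arrays on a common scale. The lymph node arrays nevertheless did not share 1 distribution. The standard deviation over all probe sets was 1.96 and 2.03 on the WT migratory arrays, against 2.21, 2.22 and 2.21 on the WT resident arrays. The Batf3-/- arrays had 2.16, 2.15 and 2.07 for migratory and 2.21, 2.23 and 2.16 for resident DC1. Array width thus went with the population in WT. This standard deviation was added to the fit, given below as "with array width as a term". The 2 WT migratory arrays had the lowest values of all lymph node arrays, so that fit cannot tell width from population. Its counts and medians show only how far the results moved when width was added. The 2 WT migratory arrays correlated at 0.958 with each other, whereas each WT resident array correlated at 0.984 to 0.991 with the others of its group. Markers of other cells moved too. Of 12 B cell markers tested, 11 were called higher in migratory DC1 (91.7%, against 16% over all genes tested). The fit with array width called 7 of the 12 markers higher, with a list median of 2.99 in place of 1.61. Their mean log2 intensity was 5.75 and 6.59 on the migratory arrays, against 4.78, 4.55 and 4.47 on the resident arrays. Without the second WT migratory array 7 were called. Of 13 T cell markers tested, 6 were called higher (46.2%), with means of 6.08 and 6.81 on the migratory arrays, against 5.70, 5.70 and 5.57 on the resident arrays. This T cell count rested on single arrays, with 2 called without the second WT migratory array and 3 without any 1 of the WT resident arrays. Of 10 macrophage and monocyte markers tested, 4 were called lower and 2 higher (40% and 20%), not far from 33.2% and 16% over all genes tested. Leaving out any 1 WT array left 1 called higher. Their median difference was -0.4. They averaged 5.60 and 5.62 on the migratory arrays, against 6.62, 6.28 and 6.32 on the resident arrays. The part of such cells in the differences was not tested. In bulk samples like these, fewer cells of a type and less RNA per cell cannot be told apart.

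**Figure D1:**
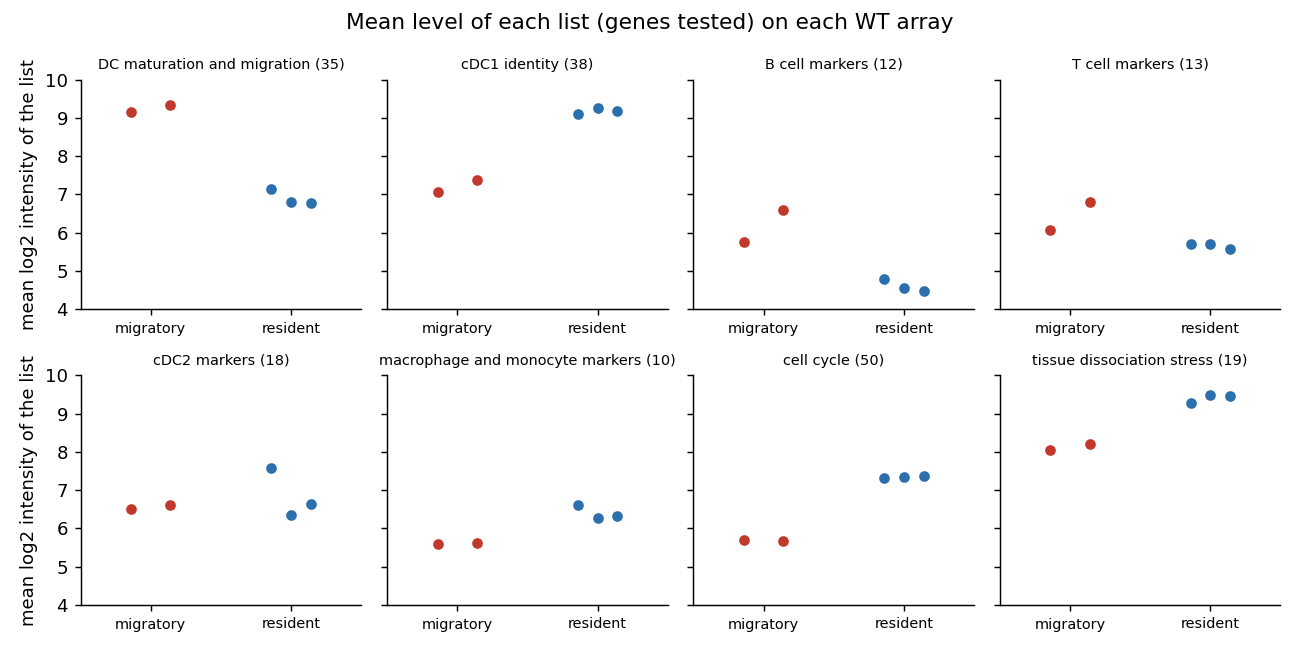
Mean log2 intensity of 8 gene lists (genes tested in brackets) on each WT array, with the 2 migratory arrays left and the 3 resident arrays right in each panel. B cell markers lie at 5.75 and 6.59 in migratory DC1, against 4.47 to 4.78 in resident DC1, and cell cycle genes at 5.69 and 5.68 in migratory DC1, against 7.32 to 7.38 in resident DC1.

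The WT migratory and resident DC1 differed over much of the transcriptome. Of 11928 genes tested, 5868 passed an adjusted p threshold of 0.05 (49.2%), with 1903 called higher in migratory DC1 (16%) and 3965 called lower (33.2%). With the further demand of at least 1 on the log2 scale, 646 were higher (5.42%) and 2061 lower (17.3%). Both migratory arrays lay above all resident arrays for 3112 genes (26.1%) and below them all for 5276 (44.2%). The titles carry codes that pair 2 migratory with 2 resident arrays, whose meaning is not given, and 9752.0 of the 11928 genes tested (81.8%) had the same sign within both codes. Among the 5868 called genes, which the same arrays chose, the number was 5858. The median difference over all genes tested was -0.16 on the log2 scale. In 4 equal bins of genes by level, from dim to bright, it was 0.15, -0.16, -0.47 and -0.39. Normalizing the arrays again by quantiles moved this median to -0.05 and centring arrays on their medians moved it to -0.31. The share of calls that were higher, 32.4% as deposited, became 41.5% after quantile normalization and 22.3% after median centring. The fit with array width called 735 genes higher and 529 lower, a largely different set: 815 of them were main calls with the same sign (13.9% of 5868), and 1683 main calls took the other sign. With no filter on dim genes 54.8% of calls were higher, and with a stricter filter (6 log2) 23.2% were. The balance between higher and lower calls therefore depended on the filter and on the scaling. The percentages called higher and lower in each gene group below stand against 16% and 33.2% over all genes tested. Counts from the fit with array width stand instead against 735 higher and 529 lower of all 11928 genes, 10.6% called in either direction. Counts in Batf3-/- DC1 stand against 14.1% higher and 22.6% lower over all genes tested.

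**Figure D2:**
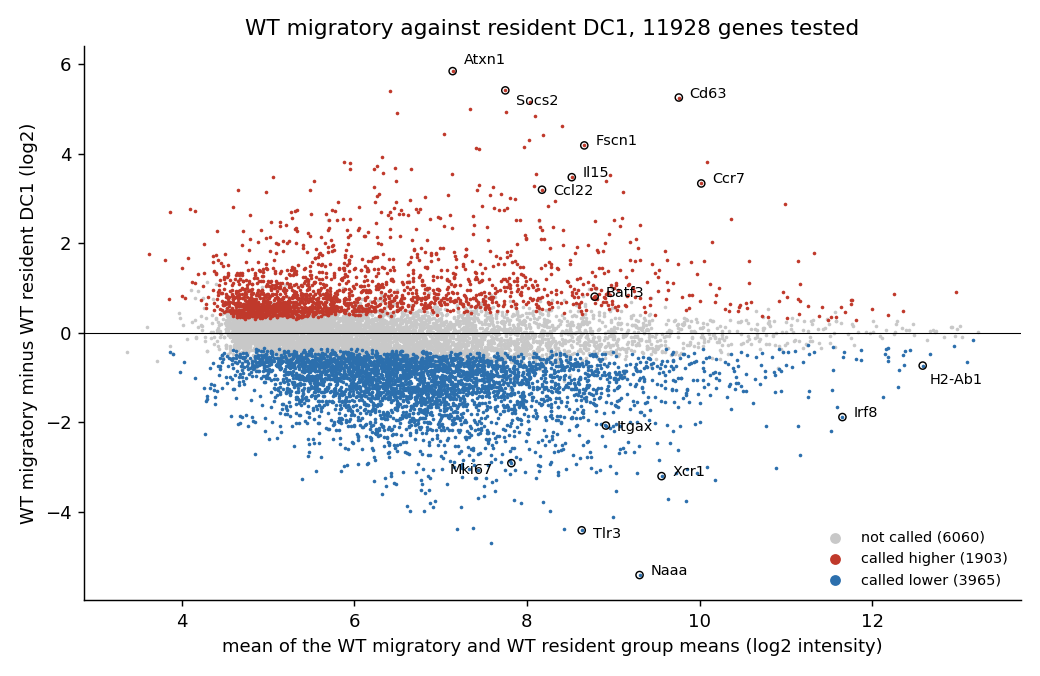
Each point is 1 of the 11928 genes tested, with the mean of both WT group means (log2 intensity) on the horizontal axis and the WT migratory minus resident difference (log2) on the vertical axis. Called genes are red (1903 higher) or blue (3965 lower), and ringed genes are named in the text.

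The gate could be followed in the transcripts only in part. Itgax, which encodes CD11c, had 7.60 and 8.16 (log2 intensity) in migratory DC1, against 9.94, 9.81 and 10.11 in resident DC1. It was thus lower in the population sorted for less CD11c, by 2.07 ± 0.37 on the log2 scale (SE, adjusted p = 0.000688), but with array width as a term its difference was 0.24. H2-Ab1, an MHC class II beta chain gene, had 12.22 and 12.21 in migratory DC1, against 13.02, 12.91 and 12.90 in resident DC1. Its transcript was therefore lower by 0.73 ± 0.09 (adjusted p = 3.36e-05) in the population sorted for more MHC class II protein, and no migratory array reached a resident one. Cd24a had a difference of -0.58 ± 0.17 (adjusted p = 0.0131). Sirpa, whose product was gated out, had 6.13 and 5.73 in migratory DC1, against 7.82, 5.31 and 5.67 in resident DC1. One resident array stood above all the others for Sirpa, the groups overlapped and no call was made (adjusted p = 0.632). The same resident array was also the highest of its group for the DC2 markers Cd209a (9.68, against 6.98 and 7.32) and Tmem176b (8.74, against 6.24 and 6.60). The mean of 18 cDC2 markers tested was 7.59 on it, against 6.35 and 6.63 on the other resident arrays and 6.52 and 6.60 on the migratory ones. Of these 18, 6 were called higher in migratory DC1 and 7 lower (33.3% and 38.9%), and 1 and 2 with array width as a term. Tmem176b was among those higher in migratory DC1, by 3.53. Ptprc, the pan-leukocyte CD45 gene, was lower in migratory DC1 by 1.49 on the log2 scale. Epcam, also gated out, stayed between 3.80 and 4.08 on the WT arrays and did not pass the filter on dim genes. Cd207, listed here both as a Langerhans cell marker and as a DC1 identity gene, lay between 4.21 and 5.74 and did not pass it either. It had 4.21 and 4.65 in migratory DC1.

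The genes listed for maturation and migration were nearly all higher in migratory DC1. This list, like the others here, was written with earlier results of these data known, so its counts describe the chosen genes and test nothing. Of 35 list genes tested, 30 were called higher and 1 lower, with a median difference of 2.15, against 16% higher, 33.2% lower and a median of -0.16 over all genes tested. Ccr7 had 11.31 and 12.07 in migratory DC1, against 8.88, 8.16 and 7.99 in resident DC1. Both migratory arrays lay clear of the resident ones, with a difference of 3.34 ± 0.35 on the log2 scale, which is 10.1-fold (adjusted p = 1.38e-05). Fscn1, the actin-bundling protein fascin of mature dendritic cell protrusions, had 10.53 and 11.00 in migratory DC1, against 7.40, 6.32 and 6.00 in resident DC1, a difference of 4.19 ± 0.62 (adjusted p = 0.000187). Socs2, a suppressor of cytokine signalling, had 10.60 and 10.32 in migratory DC1, against 5.49, 4.90 and 4.74 in resident DC1, a 42.8-fold difference (5.42 ± 0.40, adjusted p = 1.18e-06). Cd63, a tetraspanin of late endosomes and exosomes, had 12.46 and 12.31 in migratory DC1, against 8.50, 6.77 and 6.11 in resident DC1. The first resident array was the closest to migratory DC1 for both Cd63 and Fscn1. Anxa3 (4.93 ± 0.39), Slco5a1 (4.91 ± 0.32), Nudt17 (4.85 ± 0.33) and Clu (4.15 ± 0.24), the gene of the extracellular chaperone clusterin, followed, each with no overlap between arrays. Smaller differences were those of Cd200 (2.59 ± 0.19), whose product restrains myeloid cells, Samsn1 (3.14 ± 0.45) and Marcks (0.75 ± 0.12), an actin-binding substrate of protein kinase C. The 1 gene called lower was Zfp366, known as DC-SCRIPT, a transcription factor of conventional dendritic cells, with a difference of -1.18 ± 0.25 (0.25 with array width as a term). Cd83, a surface marker of mature dendritic cells, had 8.14 and 8.37 in migratory DC1, against 8.50, 8.39 and 8.60 in resident DC1, and was not called (adjusted p = 0.278). With array width as a term, 26 of the 35 were called higher and 0 lower. In Batf3-/- DC1, 31 of the 35 were called higher and 0 lower.

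**Figure D3:**
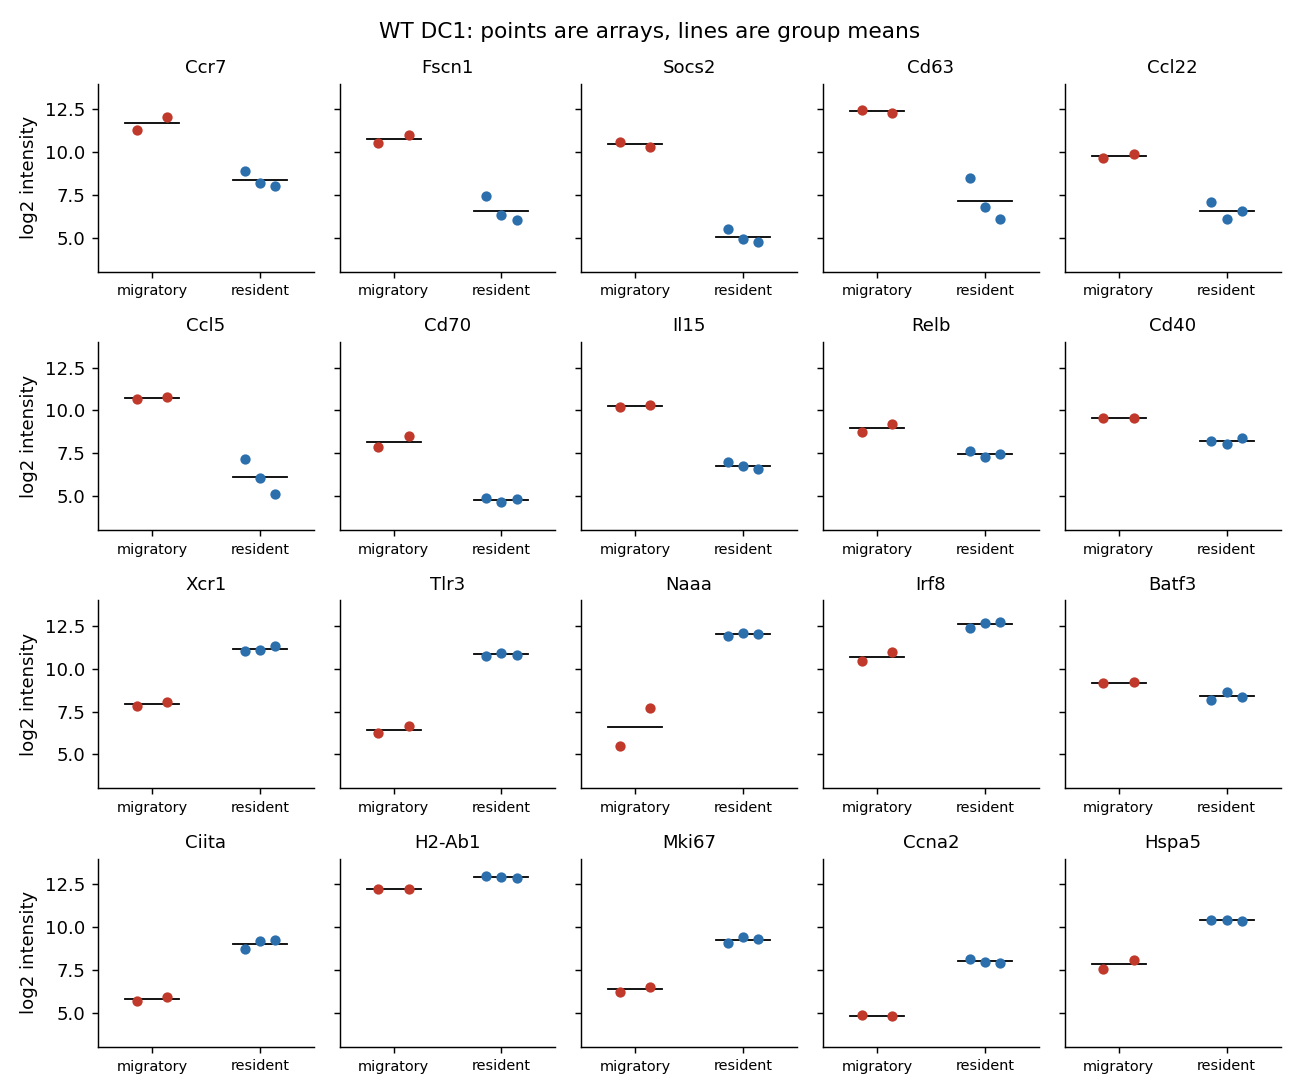
Log2 intensity of 20 named genes, with the 2 WT migratory arrays in red, the 3 WT resident arrays in blue and lines at the group means. Ccr7, Fscn1, Socs2 and Cd63 lie between 10.32 and 12.46 in migratory DC1, all above the resident arrays, and Xcr1, Tlr3 and Naaa lie below all resident arrays.

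Beyond this list, the largest increases belonged to genes of varied function. Atxn1, whose product ataxin 1 binds transcriptional repressors, had 10.09 and 10.04 in migratory DC1, against 4.54, 4.16 and 3.93 in resident DC1. This 57.9-fold difference (5.85 ± 0.33, adjusted p = 2.91e-07) was the largest increase among the called genes ranked, which leave out the symbols listed under processing. Insl6, of the insulin family, differed by 5.40 ± 0.26, and Serpinb1a, an inhibitor of neutrophil proteases, by 5.01 ± 0.23. H2-M2, a non-classical MHC class I gene, had 10.30 and 10.91 in migratory DC1, against 5.78, 5.61 and 4.98 in resident DC1. Sema6d, a membrane semaphorin, differed by 4.45 ± 0.40, and Elobl, an elongin B-like gene, by 4.30 ± 0.40. For H2-M2, Elobl and other genes with close relatives, signal from a paralog on the same probe set was not tested.

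Chemokines moved in both directions. Of 19 tested, 12 were called higher and 5 lower (63.2% and 26.3%), with a median difference of 0.65. Without the first WT migratory array 7 were called higher and 4 lower. Ccl22, a ligand of CCR4 on regulatory T cells, had 9.68 and 9.86 in migratory DC1, against 7.09, 6.07 and 6.58 in resident DC1, a difference of 3.20 ± 0.40 (adjusted p = 5.11e-05). Ccl17, the other CCR4 ligand, differed by 3.11 ± 0.24, Ccl19, a ligand of CCR7, by 3.19 ± 0.32 and Ccl5, a chemokine of T cells and other effector cells, by 4.62 ± 0.52. The neutrophil attractants Cxcl2 and Cxcl1 were also called higher, with differences of 2.75 and 1.48. Ccl3 had 4.51 and 6.01 in migratory DC1, against 8.76, 8.98 and 7.64 in resident DC1, a difference of -3.20 ± 0.46. Ccl4 differed by -1.83 ± 0.22, Ccl2 by -1.64 ± 0.28, Ccl7 by -0.92 ± 0.28 and Cxcl9, a ligand of CXCR3, by -1.29 ± 0.20. In the fit with array width, 4 chemokines were called higher and 1 lower.

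Receptors for guidance cues also moved in both directions. Of 17 guidance receptors tested, 7 were called higher and 6 lower (41.2% and 35.3%), and 4 and 4 with array width as a term. Beside Ccr7, these included Cxcr4 (1.11 ± 0.21), the receptor of CXCL12, Gpr183 (1.22 ± 0.23), the receptor of oxysterols, S1pr1 (1.06 ± 0.26), a sphingosine-1-phosphate receptor, and Cxcr5 (2.47 ± 0.37), the receptor of CXCL13. Cxcr5 is also on the B cell list and had 5.70 and 6.85 in migratory DC1, against 3.87, 3.76 and 3.78 in resident DC1. Its level was higher on the migratory array with the higher B cell marker mean, and the part of B cell RNA in it was not tested. Ccr2, which draws cells out of the blood, had 4.53 and 4.78 in migratory DC1, against a mean of 8.64 ± 0.31 (SD, n = 3) and a lowest array of 8.41 in resident DC1. Both migratory arrays lay near the filter level of 4.82, and the difference was -3.98 ± 0.27 (adjusted p = 7.26e-07). Cxcr3 differed by -3.98 ± 0.30, Ccr9, the receptor of the gut chemokine CCL25, by -3.87 ± 0.20, and Xcr1 by -3.20 ± 0.24.

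Of 19 costimulatory ligands tested, 8 were called higher and 3 lower (42.1% and 15.8%), and 7 and 0 with array width as a term. Their median difference was 0.63, and 2.15 with array width as a term. Without the first WT migratory array 4 were called higher. Cd70, the ligand of CD27, had 7.86 and 8.50 in migratory DC1, against 4.89, 4.63 and 4.83 in resident DC1, a difference of 3.40 ± 0.32 (adjusted p = 7.34e-06). Slamf1 differed by 2.39 ± 0.28, Tnfsf4, which encodes OX40 ligand, by 1.71 ± 0.46, and Cd40 by 1.35 ± 0.23. The B7 genes did not move together. Cd86 had 9.75 and 9.67 in migratory DC1, against 10.67, 10.55 and 10.60 in resident DC1, and was lower by 0.90 on the log2 scale (adjusted p = 0.000293). Cd80 had 9.34 and 8.78 in migratory DC1, against 8.75, 8.09 and 7.85 in resident DC1, and was not called (adjusted p = 0.22). Among coinhibitory molecules 7 of 20 were called higher and 5 lower (35% and 25%), and 5 and 0 with array width as a term. The number higher was 4 without the second WT migratory array, without the second WT resident array, and after median centring. Cd274, which encodes PD-L1 and is on both lists, differed by 2.08 ± 0.40, while Havcr2, which encodes TIM-3, differed by -3.57 ± 0.35 and Btla, which binds HVEM, by -2.24 ± 0.29.

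In the TNF receptor superfamily, 9 of 21 genes were called higher and 4 lower (42.9% and 19%), and 6 and 1 with array width as a term. Tnfrsf4, the receptor OX40, had 10.24 and 10.57 in migratory DC1, against 5.95, 6.20 and 5.79 in resident DC1, a difference of 4.42 ± 0.21 (adjusted p = 1.21e-07). Fas, the death receptor, differed by 3.66 ± 0.25, Tnfrsf9, the receptor 4-1BB, by 2.64 ± 0.20 and Tnfrsf11a, the receptor RANK, by 1.89 ± 0.18. Tnfrsf21 was the gene most reduced, with a difference of -2.91 ± 0.22.

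The cytokine whose gene differed most was interleukin 15. Il15, which sustains natural killer and memory CD8 T cells, had 10.21 and 10.32 in migratory DC1, against 6.98, 6.75 and 6.60 in resident DC1, an 11.2-fold difference (3.48 ± 0.39, adjusted p = 2.31e-05). Il15ra, the chain that presents interleukin 15 to neighbouring cells, differed by 3.02 ± 0.22, with no overlap between arrays. Csf1, the growth factor of macrophages, differed by 3.11 ± 0.54 and Bmp2, a bone morphogenetic protein, by 2.56 ± 0.27. Il1b, the precursor of interleukin 1 beta, had 8.12 and 7.67 in migratory DC1, against 10.55, 10.55 and 10.61 in resident DC1, and was lower by 2.67 on the log2 scale (adjusted p = 3.02e-06). Tgfbi, a matrix protein, and Tgfb1 differed by -2.71 ± 0.20 and -1.59 ± 0.20. In all, 8 of 24 cytokine genes were called higher and 6 lower (33.3% and 25%), and 4 and 2 with array width as a term. Of 37 cytokine receptors and SOCS genes, 9 were called higher and 12 lower (24.3% and 32.4%), shares not far from those over all genes, and 6 and 0 with array width as a term. Il21r (4.10 ± 0.36), Il23r (3.39 ± 0.24), Il7r (3.31 ± 0.39) and Il2ra (2.31 ± 0.35) were higher, and Ifngr1 (-2.77 ± 0.31), Il12rb2 (-2.45 ± 0.27) and Il6ra (-2.24 ± 0.31) were lower. Il7r, also a T cell marker, had 9.13 and 9.07 in migratory DC1, against 6.40, 6.13 and 4.86 in resident DC1. The part of T cell RNA in it was not tested.

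NF-kB is the family of transcription factors that drives dendritic cell maturation. Its canonical arm acts through Rela and Rel, and its alternative arm through Nfkb2 and Relb. Of 24 subunits and regulators tested, 8 were called higher and 1 lower (33.3% and 4.17%), with a median difference of 0.29. Relb had 8.74 and 9.20 in migratory DC1, against 7.60, 7.26 and 7.47 in resident DC1, a difference of 1.52 ± 0.28 (adjusted p = 0.000855). Birc2, a ubiquitin ligase that restrains the alternative arm, had 8.60 and 9.21 in migratory DC1, against 6.06, 6.03 and 6.09 in resident DC1, a difference of 2.84 ± 0.21. Nfkbia, an inhibitor and target of the canonical arm, differed by 0.92 ± 0.22 and Nfkbid by -2.24 ± 0.37. Rel had a difference of 0.53 ± 0.27 and was not called (adjusted p = 0.123). After array width entered the fit, 14 of the 24 were called higher and 0 lower, with a median of 2.1.

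The kappaB consensus, the 10-base letters that NF-kB dimers bind, was looked for on both strands of RefSeq promoter windows (GRCm38.p6, 250 bases before to 50 after each start). It was found in 133 of 1457 genes called higher with a window (9.13%), in 175 of 3290 called lower (5.32%), in 6.34% of 9540 genes tested and in 5.14% of 27025 genes of the table. Ccr7, Socs2, Atxn1 and Relb are not looked at here. The AP-1 type letters TGANTCA were in 7.14% of genes called higher, 5.71% of those called lower, 6.31% of those tested and 8.97% of the table. These shares describe letters and carry no test. The named genes called higher were then gone through in order of their difference until 5 with a kappaB match were found. This took 20 genes with a window. The number 5 was set beforehand, so it gives no share to set beside those above. They are shown because their windows carry the motif set beside the NF-kB genes, with the match in capitals. Tmem176a is left out, since its window overlaps that of Tmem176b on the other strand and holds the same match.
H2-M2, chr17:37483505-37483804, minus strand: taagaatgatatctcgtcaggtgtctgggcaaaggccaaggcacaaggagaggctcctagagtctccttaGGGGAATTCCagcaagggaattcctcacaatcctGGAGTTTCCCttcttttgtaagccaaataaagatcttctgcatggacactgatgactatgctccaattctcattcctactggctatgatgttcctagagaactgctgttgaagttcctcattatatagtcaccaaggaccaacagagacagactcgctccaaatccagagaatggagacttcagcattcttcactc
Tmem176b, chr6:48841325-48841624, minus strand: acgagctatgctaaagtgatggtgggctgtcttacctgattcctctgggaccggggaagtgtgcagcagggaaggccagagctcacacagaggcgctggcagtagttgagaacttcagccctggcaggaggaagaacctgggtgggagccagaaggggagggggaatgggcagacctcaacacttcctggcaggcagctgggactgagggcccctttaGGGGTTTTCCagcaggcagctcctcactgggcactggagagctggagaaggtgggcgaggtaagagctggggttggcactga
Epsti1, chr14:77903989-77904288, plus strand: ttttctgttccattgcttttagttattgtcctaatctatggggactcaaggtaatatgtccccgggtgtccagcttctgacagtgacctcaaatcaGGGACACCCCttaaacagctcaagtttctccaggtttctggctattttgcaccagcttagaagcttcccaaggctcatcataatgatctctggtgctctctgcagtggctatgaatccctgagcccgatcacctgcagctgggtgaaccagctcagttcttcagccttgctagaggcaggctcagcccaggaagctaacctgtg
Csf1, chr3:107760420-107760719, minus strand: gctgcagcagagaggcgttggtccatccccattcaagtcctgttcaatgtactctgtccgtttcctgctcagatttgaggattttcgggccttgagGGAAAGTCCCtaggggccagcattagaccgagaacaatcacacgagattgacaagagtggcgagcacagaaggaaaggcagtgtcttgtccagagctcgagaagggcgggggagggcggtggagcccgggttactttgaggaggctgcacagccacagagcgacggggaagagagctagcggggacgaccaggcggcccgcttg
H2-M2 held 2 matches, which began at positions -180 and -146 from the start, and the other 3 windows held 1 each. The log2 differences of these genes were 5.15 for H2-M2, 3.53 for Tmem176b, 3.39 for Epsti1 and 3.11 for Csf1.

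Genes of survival and of the interferon response were mixed. Of 27 BCL2 family and survival genes, 12 were called higher and 7 lower (44.4% and 25.9%), and 6 and 0 with array width as a term. Without the first WT migratory array 4 were called lower. Cflar, an inhibitor of death receptor signalling, differed by 1.90 ± 0.20 and Bcl2l1, which encodes the anti-apoptotic BCL-XL, by 1.38 ± 0.25, while the caspase gene Casp6 differed by -2.46 ± 0.27. Casp4, the caspase that senses cytosolic lipopolysaccharide, had 8.64 and 8.22 in migratory DC1, against 6.13, 5.72 and 5.51 in resident DC1. Of 31 type I interferon response genes, 11 were called higher and 7 lower (35.5% and 22.6%), and 5 and 3 with array width as a term. Epsti1 (3.39 ± 0.22), Gbp4 (3.26 ± 0.23) and Ifit1 (2.73 ± 0.38) were higher, and Ly6e (-2.72 ± 0.30), Irf7 (-2.52 ± 0.30) and Trim30a (-2.12 ± 0.18) were lower, so the list did not move one way.

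Genes of DC1 identity were largely lower in the migratory cells. Of 38 list genes tested, 30 were called lower and 5 higher (78.9% and 13.2%), with a median difference of -2.25. Xcr1 had 7.85 and 8.07 in migratory DC1, against 11.05, 11.09 and 11.34 in resident DC1, a 9.19-fold lower level (adjusted p = 1.18e-06). Clec9a had 6.95 and 7.68 in migratory DC1, against 10.35, 10.32 and 10.47 in resident DC1. Tlr3 had 6.22 and 6.65 in migratory DC1, against 10.77, 10.93 and 10.83 in resident DC1, a difference of -4.41 ± 0.25 (adjusted p = 2.91e-07). All 3 markers stayed above the filter level of 4.82 on both migratory arrays. Naaa, an enzyme that breaks down N-acylethanolamines, had 5.47 and 7.73 in migratory DC1, against 11.90, 12.09 and 12.03 in resident DC1, a 42.6-fold lower level (-5.41 ± 0.46, adjusted p = 3.18e-06). It had the largest decrease among the called genes ranked, and its migratory arrays were 2.26 apart. Wdfy4, needed for cross-presentation by DC1, differed by -3.76 ± 0.34, Rab7b, a GTPase of endosomes, by -4.69 ± 0.36, and Septin3 by -3.90 ± 0.21. The integrin Itgae, which encodes CD103, a marker of tissue DC1, had 4.73 and 5.60 in migratory DC1, against 7.00, 7.92 and 7.16 in resident DC1. Cd8a, a marker of resident DC1, had 5.92 and 5.94 in migratory DC1, against 7.95, 8.03 and 8.11 in resident DC1. Cadm1 differed by -1.83 ± 0.16. The 5 called higher were Ifi27l2a (1.74 ± 0.46, and -0.64 with array width as a term), Zdhhc14 (1.60 ± 0.26), Id2 (1.00 ± 0.17), Batf3 and Ly75 (0.79 ± 0.23), which encodes the uptake receptor DEC-205. With array width as a term, 21 of the 38 were called lower and 2 higher.

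The factors that hold this identity moved in opposite ways. Irf8 had 10.46 and 10.97 in migratory DC1, against 12.39, 12.68 and 12.72 in resident DC1, a difference of -1.88 ± 0.21, which is 3.69-fold (adjusted p = 2.09e-05). The migratory levels were lower although every array held cells sorted as positive for the Irf8 reporter. Batf3 had 9.15 and 9.23 in migratory DC1, against 8.15, 8.62 and 8.37 in resident DC1, a difference of 0.81 ± 0.20 (adjusted p = 0.00466), again with no overlap. On the Batf3-/- arrays Batf3 lay at 6.02, 5.87 and 6.17 in migratory and 5.96, 5.76 and 5.50 in resident DC1, below every WT array. In the fit with array width, neither gene was called. Id2, a factor of conventional dendritic cell commitment, had 10.75 and 10.68 in migratory DC1, against 9.67, 9.78 and 9.71 in resident DC1. Of 44 dendritic cell transcription factors tested, 8 were called higher and 17 lower (18.2% and 38.6%), shares close to those over all genes. Without the first WT migratory array 5 were called higher. Mycl, which is expressed with DC1 identity, differed by -3.81 ± 0.25, Nr4a1, an immediate early gene, by -3.13 ± 0.73, Notch2, the receptor of the Notch pathway, by -3.12 ± 0.43 and Klf4 by -2.61 ± 0.32. Nr4a1 had 7.87 and 8.46 in migratory DC1, against 11.39, 11.25 and 11.26 in resident DC1. Irf4, a factor of migratory DC2, had 6.53 and 6.96 in migratory DC1, against 6.68, 5.17 and 5.79 in resident DC1, and was not called (adjusted p = 0.101). After array width entered the fit, 6 of the 44 were called higher and 1 lower, and the differences of Nr4a1 and Notch2 were 2.09 and 0.17.

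Of 16 MHC class II presentation genes tested, 9 were called lower and 3 higher (56.2% and 18.8%), and 3 and 2 with array width as a term, where the median difference was -0.23 in place of -0.72. The chain genes among them encode the protein that set the gate, and their values describe the sorted cells. Ciita, which encodes the transactivator of the class II genes, had 5.67 and 5.90 in migratory DC1, against 8.72, 9.17 and 9.23 in resident DC1, a 9.53-fold lower level (-3.25 ± 0.24, adjusted p = 1.05e-06). The chain genes H2-Aa (-0.72 ± 0.09) and H2-Eb1 (-1.44 ± 0.13), the invariant chain gene Cd74 (-0.82 ± 0.13) and H2-DMa (-2.07 ± 0.11), which helps to load peptide, were lower as well. Lgmn, an endosomal protease, had 9.02 and 9.08 in migratory DC1, against 6.80, 6.23 and 5.85 in resident DC1, and was higher by 2.75 ± 0.29. Marchf1, a ligase that removes MHC class II from the surface, had 5.33 and 5.06 in migratory DC1, against 5.49, 5.37 and 5.49 in resident DC1, and was not called (adjusted p = 0.284). Of 18 class I presentation genes, 4 were called higher and 6 lower (22.2% and 33.3%), not far from the shares over all genes, and 4 and 0 with array width as a term. B2m, the light chain of class I, differed by 0.88 ± 0.13, and the chaperones Calr and Canx by -1.54 ± 0.22 and -1.47 ± 0.21.

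Of 20 Toll-like receptor genes and adaptors, 11 were called lower and 3 higher (55% and 15%), with a median difference of -1.04. The fit with array width called 2 lower and 1 higher, with a median of 0.05. Cd180, a TLR-like regulator, differed by -3.06, Tlr12, a receptor of profilin, by -2.96 ± 0.28, the adaptor Myd88 by -2.69 ± 0.31 and the chaperone Unc93b1, which brings endosomal receptors to their compartment, by -2.63 ± 0.27. Ly96, the MD-2 partner of TLR4, and Irak3, a brake on signalling, were higher by 2.78 ± 0.30 and 2.01 ± 0.17. Of 25 uptake and scavenger receptors, 14 were called lower and 7 higher (56% and 28%), and 4 and 2 with array width as a term. Without the first WT migratory array 3 were called higher. Scarb1, a receptor of lipoproteins, differed by -3.24 ± 0.23, and Cd36 by -2.25 ± 0.31. For cross-presentation and phagosome genes, 11 of 25 were called lower and 1 higher (44% and 4%), and 3 and 3 with array width as a term. The 1 called higher was Apol7c, an apolipoprotein L of dendritic cells, with 9.65 and 10.12 in migratory DC1, against 6.95, 5.88 and 6.18 in resident DC1. Other genes with large decreases were P2ry6, a receptor of UDP (-4.37 ± 0.26), Treml4, a receptor that binds dead cells (-4.37 ± 0.33), Cyth4, an exchange factor of Arf GTPases (-4.36 ± 0.27), Slamf8 (-4.11 ± 0.45) and the endosomal exchanger Slc9a9 (-3.97 ± 0.41).

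**Figure D4:**
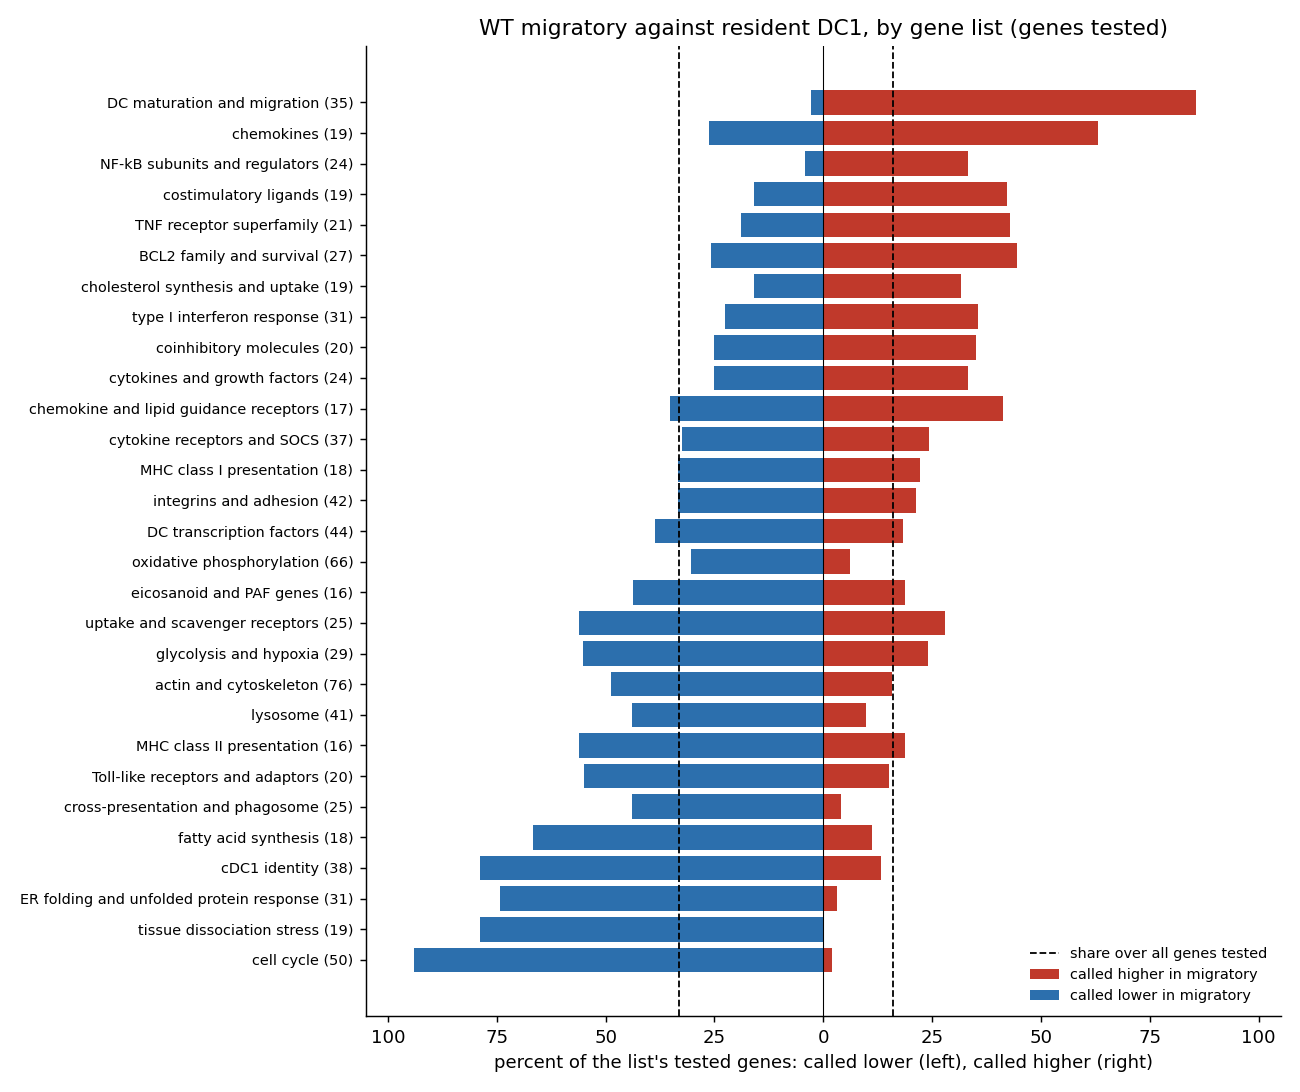
Share of each gene list drawn that was called higher (red, to the right) or lower (blue, to the left) in WT migratory DC1. Shares are in percent of the list's genes tested, whose number stands in brackets. Dashed lines mark the shares over all genes tested, 16% higher and 33.2% lower. Among the lists drawn, maturation and migration (85.7% higher) and cell cycle (94.0% lower) lie at the ends. Some lists are not drawn, among them the B cell markers (91.7% higher) and markers of further cell types.

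Cell cycle genes were lower almost without exception. Of 50 tested, 47 were called lower and 1 higher (94% and 2%), with a median difference of -1.60. Mki67, the proliferation marker Ki-67, had 6.23 and 6.50 in migratory DC1, against 9.09, 9.44 and 9.30 in resident DC1, a difference of -2.91 ± 0.41 (adjusted p = 0.000134). Ccna2, the cyclin of S and G2 phase, had 4.86 and 4.80 in migratory DC1, against 8.16, 7.99 and 7.93 in resident DC1. Its migratory values were at the filter level, and the difference was -3.20 ± 0.19. Kif23 (-3.06 ± 0.19), Ccnb2 (-3.04 ± 0.24) and Top2a (-2.98 ± 0.21), genes of division and chromosome handling, and Mcm2 (-2.53 ± 0.27), of the replicative helicase, were also lower. Pclaf, a partner of the replication clamp, differed by -3.81 ± 0.22. The 1 gene called higher was Ccnd2, a D-type cyclin, with 8.75 and 9.36 in migratory DC1, against 7.47, 7.66 and 7.43 in resident DC1. In Batf3-/- DC1, 44 of the 50 were called lower, against 22.6% over all genes tested. In the fit with array width, 14 of the 50 were called lower and 0 higher in WT, with a median of -0.99. Over all 11928 genes tested that fit called 529 lower and 735 higher, with a median of -0.05.

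Genes of protein folding in the endoplasmic reticulum were lower as a group. Of 31 tested, 23 were called lower and 1 higher (74.2% and 3.23%), with a median of -1.54. Hspa5, the chaperone BiP, had 7.58 and 8.07 in migratory DC1, against 10.40, 10.44 and 10.35 in resident DC1, a difference of -2.57 ± 0.29, which is 5.96-fold (adjusted p = 2.33e-05). Pdia6, a disulfide isomerase, had 5.06 and 5.54 in migratory DC1, against 9.06, 9.17 and 9.31 in resident DC1. Sdf2l1 (-3.11 ± 0.26), Pdia4 (-2.93 ± 0.26) and Creld2 (-2.37 ± 0.20) and the transcription factor Xbp1 (-1.69 ± 0.16), which drives them, were lower too. The 1 called higher was Ddit3, which encodes the stress factor CHOP, with 8.55 and 8.63 in migratory DC1, against 7.14, 7.49 and 7.21 in resident DC1. After array width entered the fit, 6 of the 31 were called lower and 2 higher. Genes that tissue dissociation induces were also lower, 15 of 19 called lower and 0 higher (78.9% lower), with means of 8.04 and 8.20 on the migratory arrays, against 9.28, 9.48 and 9.46 on the resident arrays. Jun (-2.44 ± 0.42), Egr2 (-2.53 ± 0.44) and Fosb (-2.07 ± 0.33) were among them, of which Egr2 and Fosb turned to 0.77 and 0.16 with array width as a term. With array width as a term, 1 of the 19 was called lower and 1 higher.

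Of 18 fatty acid synthesis genes, 12 were called lower and 2 higher (66.7% and 11.1%), with a median difference of -1.0. The fit with array width called 1 lower and 1 higher, with a median of -0.18, and 1 gene was called higher without the second WT migratory, the second WT resident or the third WT resident array. Elovl6, which lengthens palmitate, had 4.72 and 4.74 in migratory DC1, against 8.19, 7.95 and 7.79 in resident DC1, and differed by -3.24 ± 0.21 (adjusted p = 4.96e-07). Scd2, a desaturase, differed by -2.58 ± 0.29 and Fasn, the synthase, by -2.36 ± 0.34 (0.01 with array width as a term), whereas the fatty acid carrier Fabp5 differed by 2.99 ± 0.29. For cholesterol synthesis and uptake, 6 of 19 were called higher and 3 lower (31.6% and 15.8%), and 5 and 0 with array width as a term, with Idi1 (2.75 ± 0.16) and Fdft1 (1.96 ± 0.34) ahead. Without the first WT migratory array 3 were called higher and 1 lower. In glycolysis and hypoxia, 16 of 29 were called lower and 7 higher (55.2% and 24.1%), with a median difference of -0.59. The fit with array width called 2 lower and 4 higher, with a median of -0.02. Pfkp, a phosphofructokinase, differed by -3.03 (0.38 with array width as a term), Ldha by -2.51 ± 0.17 and Pgam1 by -2.50 ± 0.24, while Pfkfb3, which makes the activator of phosphofructokinase, had 10.04 and 10.50 in migratory DC1, against 7.86, 7.59 and 7.76 in resident DC1. The enolase isoforms Eno2 and Eno3 were higher by 2.73 ± 0.34 and 2.36 ± 0.20. Alox5ap, the 5-lipoxygenase activating protein of leukotriene synthesis, had 8.33 and 8.74 in migratory DC1, against 11.80, 11.87 and 11.79 in resident DC1, a difference of -3.28 ± 0.16. Of 66 oxidative phosphorylation genes, 4 were called higher and 20 lower, 30.3% against 33.2% lower over all genes, and the number lower was 12 after quantile normalization and 31 after median centring. The number higher was 1 or 2 without either WT migratory array, without the second WT resident array or without the third WT resident array.

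Of 76 actin and cytoskeleton genes, 12 were called higher and 37 lower (15.8% and 48.7%), with a median difference of -0.41. The fit with array width turned this balance, with 15 called higher, 4 lower and a median of 0.21. Beside Fscn1, Arhgap28 (2.47 ± 0.25), Arhgef3 (2.18 ± 0.22), Rhoc (2.17 ± 0.29) and Cdc42ep3 (2.04 ± 0.20) were higher. Myo1f, an unconventional myosin (-2.99 ± 0.21), the microtubule regulator Stmn1 (-2.68 ± 0.25) and Coro1a (-2.47 ± 0.26) were lower. Of 42 integrin and adhesion genes, 9 were called higher and 14 lower (21.4% and 33.3%), near the shares over all genes, and 8 and 4 with array width as a term. Itgb2, the beta chain of LFA-1, had 5.35 and 6.00 in migratory DC1, against 9.33, 9.29 and 9.36 in resident DC1, and its partner Itgal had 4.86 and 5.18, against 8.19, 8.69 and 8.72. Cdh2, which encodes N-cadherin, had 8.19 and 7.40 in migratory DC1, against 3.99, 4.13 and 3.78 in resident DC1, a difference of 3.82 ± 0.26 (adjusted p = 7.90e-07).

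The same difference in Batf3-/- DC1 comes from arrays that the WT difference does not use, though they entered the spread behind the WT calls. Over all genes tested, the 2 differences correlated at 0.84 (Pearson). Of 2707 genes called in WT with at least 1 on the log2 scale, a set chosen for large WT differences, 2646 had the same sign in Batf3-/- DC1. The same-sign share over all genes tested was not counted, so this number has no share to stand against. Array widths in Batf3-/- were 2.16, 2.15 and 2.07 for migratory DC1, against 2.21, 2.23 and 2.16 for resident DC1. The part of width in this agreement was not tested. In Batf3-/- DC1 4371 genes were called (36.6%), and 3294 were called in the same direction in both genotypes, which is 56.1% of the WT calls and 75.4% of the Batf3-/- calls. Lists varied in this. Maturation and migration and cell cycle genes kept their WT direction, as given above. Actin and cytoskeleton genes had 12 called higher and 37 lower in WT, but 23 and 17 in Batf3-/- DC1. Integrin and adhesion genes went from 9 and 14 to 15 and 10, and class I presentation genes from 4 and 6 to 9 and 3. Of 12 B cell markers, 11 were called higher in WT and 3 in Batf3-/- DC1. These counts were not compared by a test. The difference between the genotypes' differences was itself called for 149 genes (1.25%), 63 with a higher (0.528%) and 86 with a lower WT value (0.721%). This count rested on single arrays more than the WT count did: leaving out any 1 of the 11 arrays moved it, to between 17 (without the second WT resident array) and 1712 (without the third Batf3-/- migratory array), whereas the WT count of 5868 stayed between 4107 and 6547. With the title code as a replicate block the count of 149 became 543. Among DC1 identity genes, Itga8 had 3.96 and 3.89 in WT migratory DC1, against 6.51, 5.75 and 6.56 in WT resident DC1, while its 6 Batf3-/- arrays stayed between 3.20 and 3.60. Its WT difference was lower than the Batf3-/- one by 2.51 on the log2 scale (interaction adjusted p = 0.00354). Gcsam and Snx22 had WT differences of -3.34 and -2.92, and Batf3-/- differences of -1.35 and -0.79 (interaction adjusted p = 0.00656 and 0.0304). Irf8 had a WT difference of -1.88 and a Batf3-/- difference of -0.51 (interaction adjusted p = 0.0401). Elovl6 differed by -3.24 in WT and by -0.83 in Batf3-/- DC1 (interaction adjusted p = 0.00354). On the other side Bmp2 differed by 2.56 in WT and by 0.00 in Batf3-/- DC1, and Il23r by 3.39 in WT and by 1.49 in Batf3-/- DC1. Ccl17 differed by 3.11 in WT and by 1.44 in Batf3-/- DC1 (interaction adjusted p = 0.0363). Tlr1, a lipoprotein sensor, had a difference of 1.17 in WT and of -1.74 in Batf3-/- DC1, opposite calls with an interaction adjusted p of 0.0215. Pecam1, an adhesion molecule, was not called in WT (-0.22) and was lower by 2.79 on the log2 scale in Batf3-/- DC1. 

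**Figure D5:**
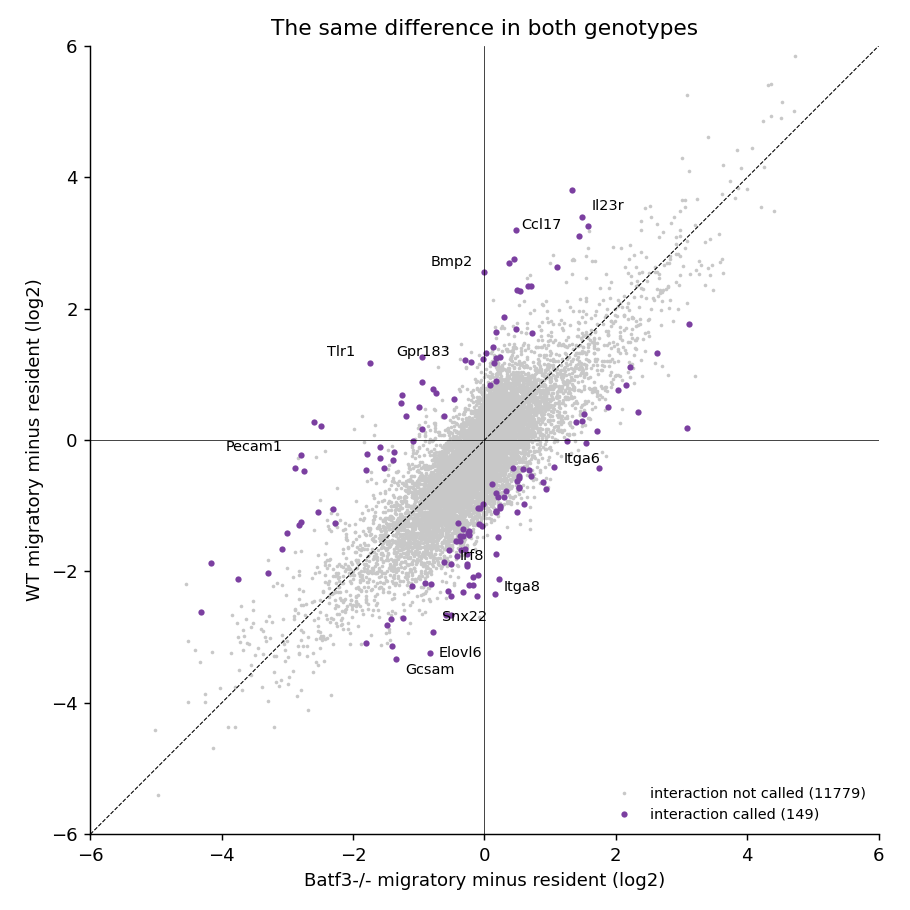
Each point is 1 of 11928 genes tested, with the Batf3-/- migratory minus resident difference (log2) on the horizontal axis and the WT difference (log2) on the vertical axis. The dashed line marks equal differences, and the 149 genes whose differences were called as unequal are purple.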

How the data were processed

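RNA of sorted lymph node DC1 was hybridised to 1-colour Affymetrix arrays. The deposited values are log2 intensities per probe set, made by the authors with RMA, per the submitters' processing notes. No version of RMA is stated in the sources used. Of 35556 probe sets, 21789 had 1 gene symbol, 1621 several and 12146 none here. Where a gene had several probe sets, as 842 tested genes did, the one with the highest mean stood for it. Genes with at least 2 of 11 arrays at or above the table's median (4.82 log2) were tested, 11928 of 19920. One model of 4 groups over all 11 lymph node arrays was fitted with limma 3.58.1 (R 4.3.3) with a variance trend, and p-values were adjusted by Benjamini-Hochberg over all genes tested, with a threshold of 0.05. Errors beside differences are standard errors. The fit was tested on simulated data with independent noise, few changed genes and no built-in difference in array width. That test does not speak to the widths seen here. Named in the text are genes of the sort gates, Irf8 and Batf3, the 15 called genes with the largest differences in each direction, and list members by size of difference. Some symbols were left out of the ranking of 15. These were symbols of Gm and digits, those starting with Mir or Snor, and those ending in Rik. Olfactory and vomeronasal receptors and antigen receptor segments were left out too. The comparison and the gene lists were chosen with earlier results of these data known. Alternatives changed the filter, scaling, weights, variance model, probe set rule and array width, blocked on title code, and left out each array. The deviations from the group means of same-coded migratory and resident arrays correlated at 0.416, 0.21 and 0.478 in Batf3-/- DC1. Differently coded ones there ran from -0.451 to 0.218, which overlaps the value of 0.21. In WT the 2 same-coded pairs correlated at 0.147 and 0.097, and differently coded ones ran from -0.147 to 0.084, without overlap. With 2 WT migratory arrays, the deviations of 1 mirror those of the other, so these WT values are not independent. These values do not settle whether the codes pair the arrays, and the main fit did not pair them. Across genotypes the same-coded values ran from -0.157 to 0.246. Arrays have no counts, and their number limits precision. The arrays of other tissue were not used here.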

Additional observations from a re-analysis of the deposited data

Results flagged for a closer look

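For 10 genes named above, the migratory minus resident difference in WT differed from that in Batf3-/- DC1 by a test of the difference itself (limma, interaction term, Benjamini-Hochberg). The WT minus Batf3-/- value on the log2 scale was -2.51 for Itga8, -2.41 for Elovl6, -2.13 for Snx22, -1.99 for Gcsam and -1.38 for Irf8. It was 2.91 for Tlr1, 2.57 for Pecam1, 2.56 for Bmp2, 1.89 for Il23r and 1.67 for Ccl17. Itga8, Elovl6, Gcsam, Snx22 and Irf8 thus had the lower value in WT and the other 5 the higher one. Groups held 2 or 3 arrays, too few to ask whether 1 array stood apart from its group by a formal rule.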

How the results depend on the processing

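The WT count of 5868 called genes became 8865 with no filter on dim genes (4857 higher) and 1264 with array width as a term (735 higher, 529 lower), and the stricter filter left 1081 higher. Leaving out 1 array gave 4107 to 6547 calls in WT, with 1313 to 2198 higher and 2794 to 4349 lower, and 3453 to 4519 in Batf3-/- DC1. At least 1 on the log2 scale left 2707 in WT (646 higher, 2061 lower) and 1875 in Batf3-/- DC1 (685 higher, 1190 lower). With the title code as a replicate block the WT count was 6362 and the interaction count 543 (156 higher, 387 lower). The Batf3-/- count with this block was 4663. The 149 interaction calls (63 higher, 86 lower) became 298 with no filter (189 higher), 93 with median centring (32 higher), 1110 with array weights (232 higher, 878 lower) and 30 with array width (22 higher, 8 lower). The stricter filter left 39 higher. Leaving out 1 array gave 17 to 1712, with 6 to 368 higher and 11 to 1344 lower. Of 172 named called genes, 101 kept their call with array width as a term, 62 lost it and 9 reversed: Nr4a1 (2.09), Egr2 (0.77), Pfkp (0.38), Zfp366 (0.25), Itgax (0.24), Notch2 (0.17), Fosb (0.16), Fasn (0.01) and Ifi27l2a (-0.64). Among genes not called, Cd83 turned to 0.47 with array width and 0.09 after quantile normalization, leaving out 1 array gave Sirpa -0.82 to 0.44 (the highest without WT resident replicate 1) and Pecam1 -0.49 to 0.05 (the highest without WT migratory replicate 1). The cause of these changes was not tested. Array width differs with the population, and so few arrays limit what that fit can resolve.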
